A study of Mus musculus with 16 samples.

Results

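Hsd11b1, Hsd17b4, Hsd17b10, Hsd17b12 and H2-Ke6 (also called Hsd17b8) are hydroxysteroid dehydrogenase genes expressed in mouse fat. They are 5 of 8252 genes that the platform annotation names by a single symbol, and they were taken by that symbol with every probe set (a group of array features that measure 1 transcript) it names. This gave 6 of the 12488 probe sets on the array, 2 of them for H2-Ke6. The study measured retroperitoneal fat, a depot behind the abdominal cavity, on 16 single-colour Affymetrix arrays, 8 of gonadectomised female mice and 8 of gonadectomised males. In each sex 6 arrays followed a subcutaneous injection of 0.1 mg of dihydrotestosterone (DHT), a potent androgen, with 1 array for each time (1, 3 and 6 h, then 12, 18 and 24 h), and 2 arrays came from mice given vehicle. Both the DHT and the vehicle groups were gonadectomised, and intact mice are not analysed here. Per the labels' protocols tissue was gathered from every mouse in a group, so an array may hold several animals. The vehicle arrays are described with a time of 24 h, which only the 24 h DHT arrays share. In the other comparisons with vehicle, and late against early, effects of DHT and of time since injection cannot be told apart. Strain, age and the number of mice per array are not given in the sources used here. Whether both vehicle arrays of a sex came from different mice is not stated, so the spread between them may be technical. The p-values measure only the spread between these arrays. With 1 array per sex and time, that spread is mostly how far the time courses of the sexes depart from each other. The main fit takes these courses to be the same.

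Hydroxysteroid dehydrogenases move hydrogen between a steroid's hydroxyl and keto groups and so switch hormones on or off inside a cell. Hsd11b1 sits in the endoplasmic reticulum and remakes active glucocorticoid from its inert keto form, and fat is one of its best known sites. The members named Hsd17b also carry out fatty acid or amino acid chemistry: Hsd17b4 in peroxisomal beta-oxidation, Hsd17b12 in the elongation of very long chain fatty acids, Hsd17b10 in isoleucine breakdown and, in human cells, in the mitochondrial RNase P, and H2-Ke6 in mitochondrial fatty acid synthesis, a role known from the human enzyme.

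On RefSeq's GRCm38.p6, Hsd11b1 lies on chromosome 1 from 193221640 to 193264045, Hsd17b12 on chromosome 2 from 94032697 to 94157909, and H2-Ke6 on chromosome 17 from 34026033 to 34028055. Hsd17b10 lies on chromosome X from 152001896 to 152004442. RefSeq promoters of 300 bases around a start site were matched for 4 of the 5 genes. Shown are that of Hsd11b1 (chr1:193242311-193242610, minus strand, a start inside the annotated span of the gene), whose level differed most between the sexes, and that of Hsd17b10 (chrX:152001646-152001945, plus strand), whose level did not pass a test in any comparison. Capitals mark the CCAAT box.
Hsd11b1: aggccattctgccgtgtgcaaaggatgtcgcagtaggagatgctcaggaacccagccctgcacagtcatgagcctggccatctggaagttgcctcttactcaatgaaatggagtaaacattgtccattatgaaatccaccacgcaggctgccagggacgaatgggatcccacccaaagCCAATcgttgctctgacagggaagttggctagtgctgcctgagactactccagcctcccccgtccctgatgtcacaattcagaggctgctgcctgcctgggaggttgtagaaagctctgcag
Hsd17b10: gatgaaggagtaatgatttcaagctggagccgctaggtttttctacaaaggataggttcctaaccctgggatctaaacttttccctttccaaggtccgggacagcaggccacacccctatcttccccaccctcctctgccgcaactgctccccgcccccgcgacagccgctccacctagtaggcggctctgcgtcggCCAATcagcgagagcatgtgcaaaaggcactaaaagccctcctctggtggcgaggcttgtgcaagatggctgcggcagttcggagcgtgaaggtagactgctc
The Hsd11b1 window held 6 CG dinucleotides, against 15 in Hsd17b10, 16 in H2-Ke6 and 23 in Hsd17b12, with a median of 7 over 32851 promoters. CCAAT, searched on both strands, was present in each of the 4 windows and in 37.4% of all promoters. The half-site of the androgen and glucocorticoid response element (AGAACA, both strands) was in none of the 4 and in 19% of all promoters, and the full element (AGAACA, any 3 bases, then TGTTCT) in none of the 4 and 0.00913% of all. TATAAA, searched on both strands, was in none of the 4 and in 13.6% of all. These matches describe the windows and say nothing of binding.

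One array stands apart. Male vehicle replicate 2 correlated with the other 15 at r of 0.617 to 0.712 across probe sets, while each other array reached at least 0.951 with another. Of 19 skeletal muscle markers 18 were higher on it than on any other array, 13 of 14 adipocyte markers were lower, and 13 of 16 macrophage markers were lower. The summed adipocyte signal was 25304 there, against 136880 to 194310 on the other 7 male arrays. Adipoq, the gene of the fat hormone adiponectin, had signals of 19206 to 31645 on the 15 other arrays and 1946 on this one. Results are given with all 16 arrays, as planned, and with the 15 without it. In bulk tissue, fewer cells of a type and less RNA per cell cannot be told apart. The female 12 h array held exocrine pancreas markers with a summed signal of 93407, against 1199 to 8284 on the others.

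Hsd11b1 was the member that differed most between the sexes. In females the probe set 97867_at had signals of 405 and 376 with vehicle and, after DHT, 395 (1 h), 562 (3 h), 465 (6 h), 540.4 (12 h), 566 (18 h) and 809 (24 h). In males the signals were 1200.1 and 241 with vehicle and, after DHT, 932, 981, 1353, 1660.4, 1661 and 1632 at the same times. All 8 female arrays lay below each of the 7 male arrays other than male vehicle replicate 2, whose signal was below every other array. The share of all probe sets that separate the sexes in this way was not counted. The mean was 515 ± 141 in females (SD, n = 8), against 1345 ± 318 in the 7 males (SD, n = 7) and 1207 ± 489 in all 8.

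In limma, with sex and time as factors, Hsd11b1 was lower in females by a log2 change of -1.07 ± 0.28 (SE; 0.477-fold) with 16 arrays, adjusted p = 0.0477. It was 1 of 5 member probe sets tested that passed, and 5.58% of all 7453 probe sets tested passed in this comparison (342 higher and 74 lower in females). With 15 arrays the change was -1.33 ± 0.11 (0.399-fold; adjusted p from limma = 1.247e-05), and 15.7% of probe sets passed (660 higher and 508 lower in females). On the 12 DHT arrays alone it was -1.27 ± 0.13 (adjusted p from limma = 0.00022), and 12.3% of probe sets passed. With the muscle-rich array kept in, the call was lost when any of the other 15 arrays was left out (adjusted p = 0.063 to 0.124 from limma), while the log2 change stayed between -1.13 and -0.92.

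Adipocyte markers moved with sex as well. With 15 arrays, 8 of 14 tested were lower in females, 0 higher, with a median log2 change of -0.40 beside 0.0085 for all probe sets tested. With 16 arrays 0 of 14 passed. Of all probe sets tested, 15.7% passed between the sexes in either direction with 15 arrays and 5.58% with 16. Their summed signal was 110980 to 157350 in females and 136880 to 194310 in the 7 males. With 15 arrays macrophage markers were higher in females for 10 of 13 tested and lower for 0, and with 16 arrays for 5 and 0. Their summed signal was 33332 to 45133 in females and 24624 to 30960 in the 7 males. Skeletal muscle markers were lower in females for 7 of 17 with 15 arrays and for 1 of 18 with 16, and higher for 0. Their sums were 20184 to 51797 in females and 40191 to 69433 in the 7 males. Adrenal cortex sums overlapped between the sexes (6737 to 8516 in females and 7045 to 8156 in males), as did kidney sums (333 to 911 in females and 573 to 773 in males). The part of adipocytes or of these other cell types in the sex difference of Hsd11b1 was not tested.

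Within the range of adipocyte sums that both sexes covered, 136880 to 157350, Hsd11b1 signals were 405 to 809 on 3 female arrays and 932 to 1660.4 on 2 male arrays. Per 1000 units of summed adipocyte signal, Hsd11b1 was 2.87 to 5.14 in females (median 3.88, n = 8) and 5.05 to 11.1 in the 7 males (median 8.19). These ranges overlapped slightly, at the female 24 h and male 3 h arrays. On male vehicle replicate 2 the value was 9.54, within the range of the other males. Scd1, Adipoq and Retn made up 51.3% to 65.2% of the sum in females and 48.8% to 57.4% in the 7 males, and with 15 arrays their female over male log2 changes were -0.20, -0.20 and -0.32. Other adipocyte markers were lower by amounts nearer to that of Hsd11b1, with changes of -1.19 for Lep, -0.98 for Plin4, -0.86 for Cidec and -0.82 for Lipe. These 7 markers were chosen after their values were seen. The comparison with adipocyte sums was not planned, and it does not test the part of adipocytes in the sex difference.

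**Figure D1:**
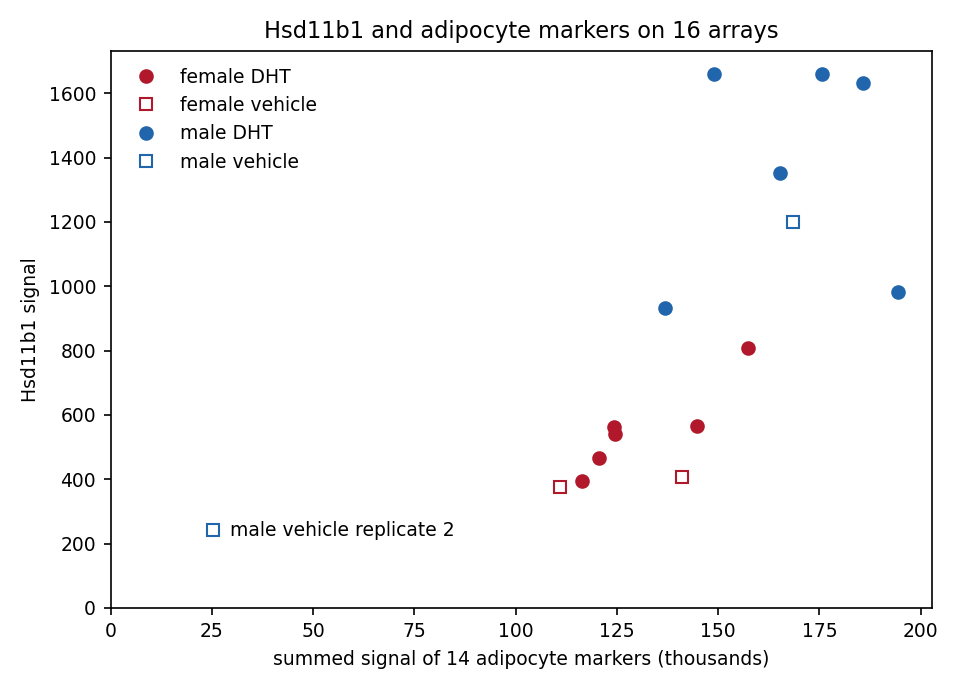
Hsd11b1 signal (vertical axis, linear) against the summed signal of 14 adipocyte markers (horizontal axis, in units of 1000) on 16 arrays, with filled circles for DHT and open squares for vehicle. Female arrays lie at 376 to 809 and 7 male arrays at 932 to 1661, and male vehicle replicate 2 lies at 241 with the lowest adipocyte sum, 25304.

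Over the hours after DHT, Hsd11b1 was higher on late arrays (12, 18 and 24 h) than on early arrays (1, 3 and 6 h), but the difference did not pass. In females the late mean was 639 ± 148 and the early mean 474 ± 83.7 (SD, n = 3 each), and the lowest late array lay under the highest early one. In males the late mean was 1651 ± 16.7 and the early mean 1088 ± 230.2 (SD, n = 3 each), with no overlap. With so few arrays such separation can arise by chance, and its share over all probe sets was not counted. The log2 change was 0.51 ± 0.32 with 16 arrays (adjusted p from limma = 0.9999) and 0.51 ± 0.13 with 15 (unadjusted p = 0.00174, adjusted p from limma = 0.295). Passing probe sets were 0% of all with 16 arrays and 0.0268% with 15, and 0 members passed in either fit, with 0 and 1 at an unadjusted p under 0.05. It was 0.41 ± 0.21 within females and 0.61 ± 0.15 within males (3 late against 3 early each, adjusted p from limma = 0.631 and 0.859). The antisense control probe sets, a technical measure, had mean log2 levels of 7.32 to 7.995 on late and 6.13 to 6.29 on early female arrays, and of 7.12 to 7.28 on late and 6.30 to 7.65 on early male arrays. In a fit of 15 arrays that included this control level, the late over early log2 change of Hsd11b1 was 0.64 ± 0.16 (adjusted p from limma = 0.630).

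Set against vehicle over all times, Hsd11b1 had a log2 change of 0.86 ± 0.32 with 16 arrays (1.82-fold; unadjusted p = 0.0208, adjusted p from limma = 0.630). With 15 arrays it was 0.35 ± 0.14 (1.27-fold, adjusted p from limma = 0.999), so the size of the estimate depended on male vehicle replicate 2. Of the 6 female DHT arrays 5 exceeded both female vehicle arrays, and 4 of the 6 male DHT arrays exceeded male vehicle replicate 1. How many of all probe sets do so was not counted. At single times the log2 changes with 15 arrays were -0.13 (1 h), 0.15 (3 h), 0.25 (6 h), 0.50 (12 h), 0.53 (18 h) and 0.77 (24 h), with an SE of 0.20 for each. With 16 arrays they were 0.39, 0.67, 0.77, 1.02, 1.05 and 1.29, with an SE of 0.48. The times share the vehicle arrays.

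No member passed against vehicle. Over all times, 0 of 5 passed in limma with 16 arrays and 0 with 15, with 1 (Hsd11b1) at an unadjusted p under 0.05 in each, where 0.0403% and 0.0537% of all probe sets passed. In 30 tests of single times 0 passed with 16 arrays, with 1 at an unadjusted p under 0.05 (Hsd11b1 at 24 h), and 0 passed with 15, with 4 at that level (Hsd11b1 at 12, 18 and 24 h and H2-Ke6 at 18 h). The share of all probe sets that passed with 16 arrays was 0% at 1, 18 and 24 h, 0.0134% at 3 h, and 0.0403% at 6 and at 12 h. With 15 arrays it was 0% at 1 h, 0.0134% at 3 and at 24 h, 0.0537% at 6 h, 0.0403% at 12 h and 0.0268% at 18 h. In the F test of all 6 times, 0 members passed with 16 arrays (0% of probe sets) and 0 with 15 (0.0671%), with 0 and 1 members at an unadjusted p under 0.05. The sex by DHT term was passed by 0 members in limma with 16 arrays and 0 with 15, none of them at an unadjusted p under 0.05, where 0% and 0.0134% of probe sets passed. Its value for Hsd17b12 was -1.69 ± 0.85 with 16 arrays and -0.11 ± 0.32 with 15 (adjusted p from limma = 0.611 and 0.999). Of 11 genes tested from a list of androgen and glucocorticoid response element targets, 3 rose with DHT in the same fit of 16 arrays. These were Fkbp5, a receptor chaperone (log2 1.38), Mt2, a metallothionein (1.63), and Gadd45g, a stress response gene (1.44). With 15 arrays 4 rose, the fourth being Errfi1. This list was chosen with earlier results of these data known, so its passes are no independent check of the fit.

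**Figure D2:**
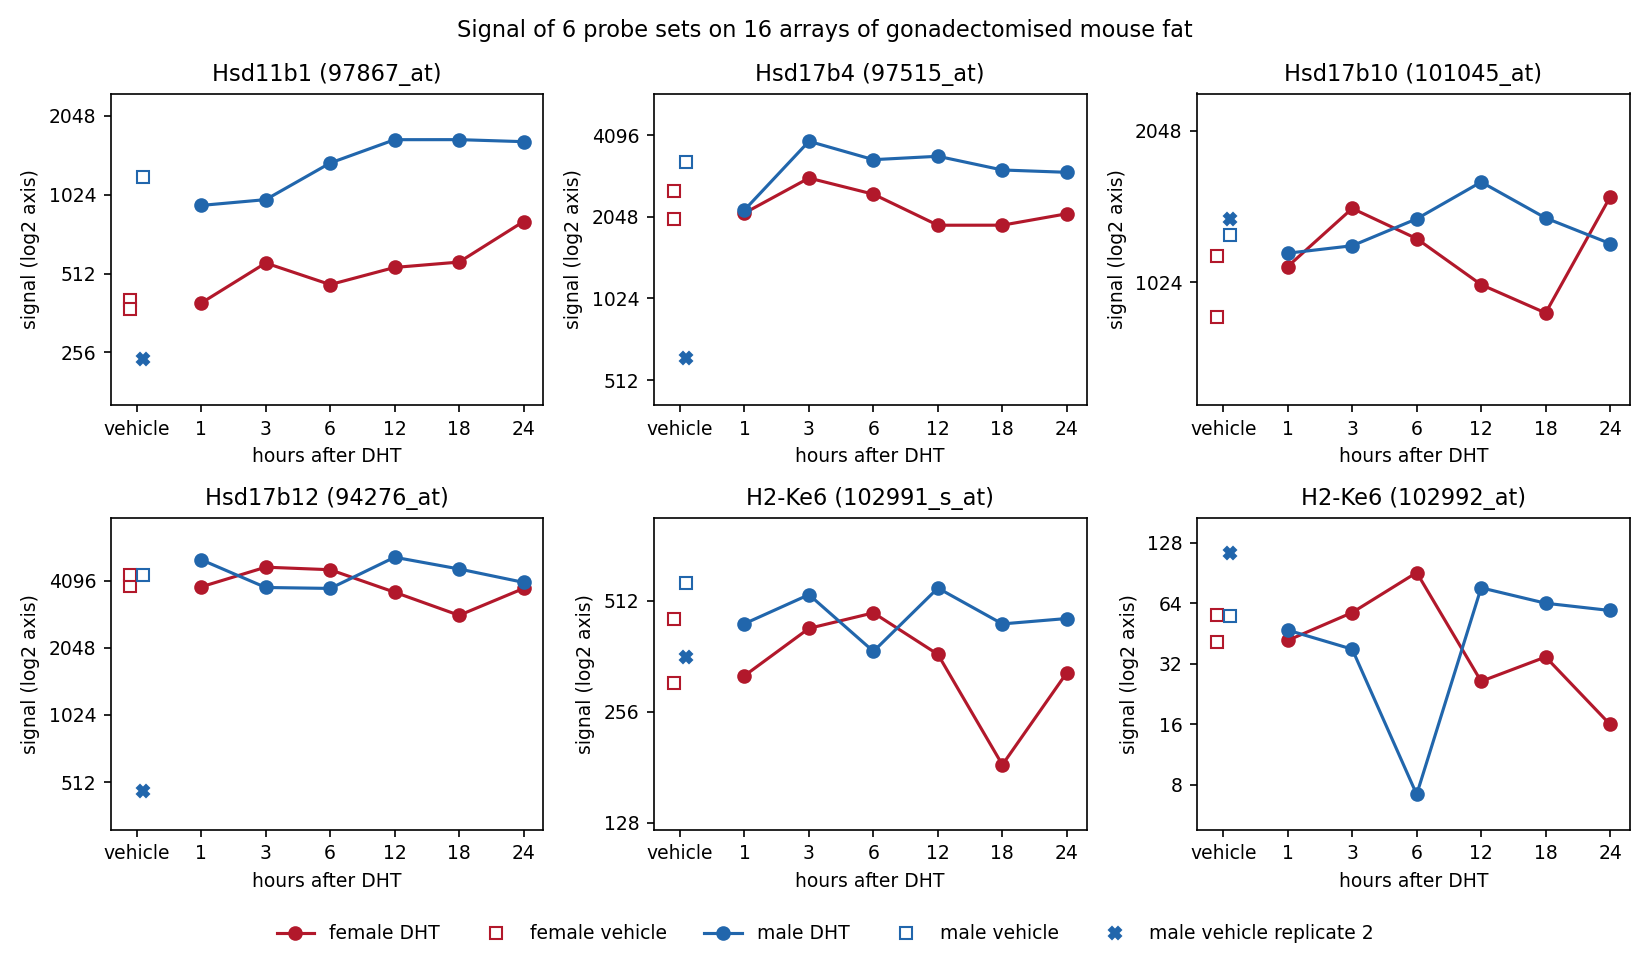
Signal (log2 axis) of the 6 probe sets with vehicle and at 1 to 24 h after DHT, in females (red) and males (blue), with 1 point for each array. Hsd11b1 lies at 376 to 809 in females and at 932 to 1661 in 7 males, and the cross marks male vehicle replicate 2, which is low for Hsd11b1 (241), Hsd17b4 (620.4) and Hsd17b12 (469).

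Hsd17b4, the bifunctional enzyme of peroxisomal beta-oxidation, which can also oxidise oestradiol, was lower in females once the muscle-rich array was left out. The gene lies on chromosome 18 from 50128201 to 50196270 (GRCm38.p6). In females 97515_at had signals of 2007 and 2545 with vehicle, and 2113, 2844, 2479.5, 1906, 1907 and 2101 at the 6 times in order. In males it had 3246 and 620.4 with vehicle, and 2169, 3884, 3324, 3421, 3045 and 2986 after DHT. The highest levels of both sexes after DHT were at 3 h, and 6 of the 7 males other than male vehicle replicate 2 lay above all females, the exception being the male 1 h array. How common such separation is over all probe sets was not counted. The mean was 2238 ± 344 in females (SD, n = 8) and 3153 ± 525 in those males (SD, n = 7).

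The female over male log2 change of Hsd17b4 was -0.49 ± 0.10 with 15 arrays (0.711-fold; adjusted p from limma = 0.00484) and -0.20 ± 0.31 with 16 (adjusted p = 0.793). On the 12 DHT arrays it was -0.49 ± 0.11 (adjusted p from limma = 0.0168). Hsd17b4 and Hsd11b1 were the 2 of 5 members that passed with 15 arrays, where 15.7% of all probe sets did. Against vehicle the log2 change was 0.54 ± 0.35 with 16 arrays and -0.05 ± 0.12 with 15, and late against early it was -0.13 ± 0.11 with 15.

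Several other genes of a list built around peroxisomal beta-oxidation were lower in females. The list also holds a transporter, an import receptor and other peroxisomal genes, so it does not stand for that pathway alone. Of 12 tested, 3 were lower and 0 higher with 16 arrays, and 6 lower and 0 higher with 15. Of all 7453 probe sets tested, 74 were lower and 342 higher in females with 16 arrays (5.58% in either direction). With 15 arrays 508 were lower and 660 higher (15.7%). The median log2 change was -0.40 with 15 arrays, against 0.0085 over all probe sets. Adipocyte markers had the same median (-0.40, 8 of 14 lower) and 7 of 17 skeletal muscle markers were lower in that fit, and their part in the sex difference of this list and of Hsd17b4 was not tested. The 3 were Crat, a carnitine acyltransferase (-0.84 with 16 arrays), Ech1, a dienoyl-CoA isomerase (-0.64), and Phyh, which starts the breakdown of phytanic acid (-0.77). With 15 arrays they were joined by Abcd3, a peroxisomal fatty acid transporter (-0.41), Acaa1b, a peroxisomal thiolase (-0.59), and Pex5, the import receptor of peroxisomal enzymes (-0.40). Acaa1a (-0.16) and Scp2 (-0.36) were among those that did not pass with 15 arrays (adjusted p from limma = 0.324 and 0.257). In this list 0 of 12 passed for DHT against vehicle with 16 or 15 arrays.

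Hsd17b12, the ketoacyl-CoA reductase of fatty acid elongation in the endoplasmic reticulum, did not pass in any comparison with 16 or 15 arrays. In females 94276_at had signals of 3889.5 and 4346 with vehicle, and 3847, 4714, 4591, 3639, 2866 and 3784 at the 6 times. In males it had 4350.2 and 469 with vehicle, and 5089.6, 3822, 3784, 5223, 4626 and 4028 after DHT. The sexes overlapped, and male vehicle replicate 2 was at 0.106 of the mean of the other 7 males. The female over male log2 change was 0.24 ± 0.42 with 16 arrays and -0.17 ± 0.12 with 15 (adjusted p from limma = 0.822 and 0.399). Against vehicle it was 0.75 ± 0.48 with 16 arrays and -0.05 ± 0.15 with 15, so that the sign of both comparisons depended on that array.

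In the elongation cycle that Hsd17b12 serves, 0 of 4 tested genes passed for DHT against vehicle with 16 or 15 arrays. The smallest p values with 16 arrays were those of Hacd3, a dehydratase of the cycle (log2 0.33, unadjusted p = 0.0942), Elovl5 (0.62), an elongase of polyunsaturated fatty acids, and Elovl6 (1.09), an elongase of saturated fatty acids. Without male vehicle replicate 2 these changes were 0.12 for Hacd3, 0.0020 for Elovl5 and -0.09 for Elovl6. Between the sexes Elovl6 was higher in females with 15 arrays (0.87, adjusted p from limma = 0.00327; 1.46 with 16 arrays, adjusted p = 0.206), and was the 1 of 4 that passed, where 15.7% of all probe sets did.

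Hsd17b10, a mitochondrial dehydrogenase encoded on the X chromosome, did not pass in any comparison with 16 or 15 arrays. In females 101045_at had signals of 1155 and 873 with vehicle, and 1099.9, 1435, 1249.6, 1012, 889 and 1512 at the 6 times. In males it had 1272 and 1367 with vehicle, and 1169, 1209.7, 1368, 1619.8, 1374 and 1222 after DHT. Male vehicle replicate 2 lay within the range of the other males here, at 1.04 of their mean. Females averaged 1153 ± 236 and males 1325 ± 143 (SD, n = 8 each), with overlapping ranges. The log2 change was -0.22 ± 0.14 between the sexes, 0.11 ± 0.16 against vehicle and -0.01 ± 0.16 late against early with 16 arrays (adjusted p from limma = 0.448, 0.777 and 0.9999).

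Of 12 tested genes of branched-chain amino acid breakdown, the pathway of isoleucine, valine and leucine, 1 was lower in females with 16 arrays, where 5.58% of all probe sets passed, and 3 with 15, where 15.7% did, and 0 were higher. The other subunits of mitochondrial RNase P, Trmt10c and Prorp, were not analysed here. The gene lower in females with 16 arrays was Bckdha, a subunit of the branched-chain ketoacid dehydrogenase (-0.60). With 15 arrays Bckdha was joined by Echs1, a mitochondrial enoyl-CoA hydratase (-0.65), and Mcee, the methylmalonyl-CoA epimerase (-0.44). The median of the list was -0.44 with 15 arrays, against 0.0085 over all probe sets. In that fit the median was -0.40 for adipocyte markers, -0.47 for skeletal muscle markers and 0.40 for macrophage markers. The part of tissue makeup in the sex difference of this list was not tested. For DHT against vehicle 0 of 12 passed with either set of arrays.

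H2-Ke6, which can oxidise oestradiol, was measured by a pair of probe sets. In females 102991_s_at had signals of 306 and 457 with vehicle, and 321, 431, 474, 366, 184 and 327 at the 6 times. In males it had 571 and 360.1 with vehicle, and 443, 531, 373, 554, 443 and 458 after DHT. The lowest array was the female 18 h array, and the sexes overlapped. The female over male log2 change was -0.40 ± 0.17 with 16 arrays and -0.47 ± 0.16 with 15, which did not pass (adjusted p from limma = 0.227 and 0.0678). Against vehicle it was -0.06 ± 0.20 with 16 arrays and -0.20 ± 0.20 with 15. At 18 h it was -0.64 ± 0.28 with 15 arrays (unadjusted p = 0.0398, adjusted p from limma = 0.721), and the female 18 h array had the highest antisense control level of all, 7.995.

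The other probe set of the gene, 102992_at, had signals of 15.99 to 90.98 in females and 7.18 to 113 in males and lay under the filter (a signal of 116.03 at the mean log2 level), so 5 of the 6 probe sets were tested. Without a filter its log2 change was -0.21 ± 0.34 between the sexes and -0.44 ± 0.39 against vehicle, with no pass. Among mitochondrial fatty acid synthesis genes 0 of 4 tested passed between the sexes with 16 arrays, and with 15 Mecr, the enoyl reductase of that pathway, was lower in females (-0.40, adjusted p from limma = 0.0256), 1 of 4 where 15.7% of all probe sets passed. For DHT against vehicle 0 of 4 passed with 16 or 15 arrays, and the smallest p values with 16 arrays were those of Mecr (0.31), Ndufab1, the mitochondrial acyl carrier protein (-0.39), and Acsf3, a malonyl-CoA synthetase (0.17). Without male vehicle replicate 2 they were 0.15 for Mecr, -0.15 for Ndufab1 and -0.15 for Acsf3.

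**Figure D3:**
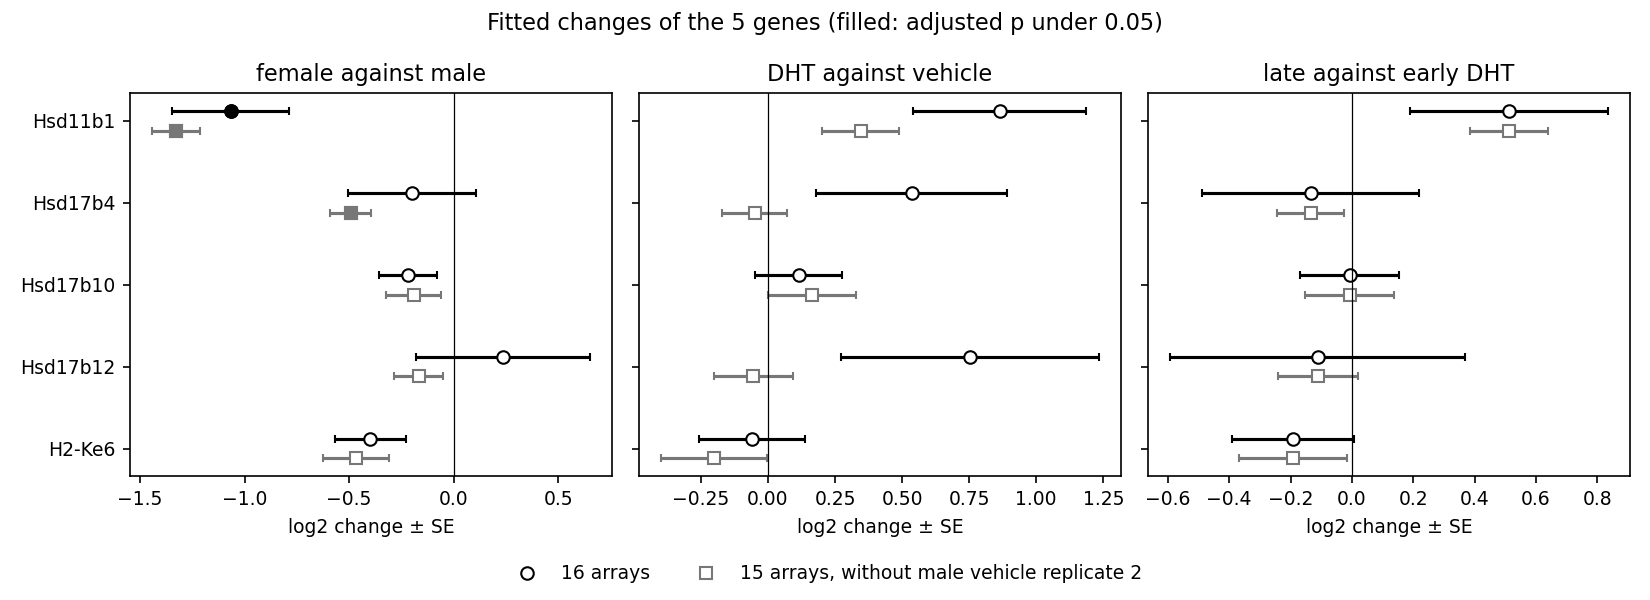
Log2 changes (horizontal axis) of the 5 tested probe sets with standard errors from limma, for female against male, DHT against vehicle and late against early DHT, with 16 arrays (circles) and 15 arrays without male vehicle replicate 2 (squares). Filled symbols mark an adjusted p under 0.05, which Hsd11b1 reached between the sexes with 16 (-1.07) and 15 arrays (-1.33) and Hsd17b4 with 15 (-0.49).

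Of 45 other steroid-metabolising genes listed, 28 were on the array with 1 gene symbol and 10 lay above the filter. For DHT against vehicle 0 of 10 passed with 16 or 15 arrays, and the smallest p values with 16 arrays were those of Akr1c13, an aldo-keto reductase (log2 0.95, unadjusted p = 0.0267), H6pd, which supplies NADPH to Hsd11b1 inside the endoplasmic reticulum (0.44), and Rdh11, a retinol dehydrogenase (0.50). Without male vehicle replicate 2 they were 0.34 for Akr1c13 (unadjusted p = 0.0599), 0.17 for H6pd and 0.12 for Rdh11. Between the sexes 0 of 10 passed with 16 arrays. With 15 arrays, where 15.7% of all probe sets passed, 3 of 10 were lower in females and 0 higher, namely H6pd (-0.47), Hsd3b7 of bile acid synthesis (-0.57) and Tspo, a mitochondrial membrane protein (-0.62), with adjusted p from limma = 0.00782, 0.00904 and 0.000158. Signals of H6pd were 2847 to 4929 in females, 4380.3 to 5910 in the 7 males and 2268 on male vehicle replicate 2. Hsd11b2, which inactivates glucocorticoid and so runs against Hsd11b1, lay under the filter, with signals of 29.7 to 42.9 in females and 21.7 to 36.2 in males.

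Of 8 steroid receptor genes listed, 6 were on the array and 2 lay above the filter, Pgrmc1 and Pgrmc2, both membrane-associated progesterone receptor components. Neither passed between the sexes (-0.10 and -0.15 with 15 arrays) or against vehicle (-0.20 and -0.11). The glucocorticoid receptor gene Nr3c1 lay under the filter, with signals of 55.2 to 99.6 in females and 34.5 to 252 in males, the highest on male vehicle replicate 2.

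The members were compared among themselves and with other genes by Pearson's r of log2 signal over the 15 arrays, as a description. These arrays share the sex difference and the array-wide scaling. Among the 5 genes r was highest for Hsd17b12 with H2-Ke6 (0.784) and Hsd17b4 with H2-Ke6 (0.734) and lowest for Hsd11b1 with Hsd17b12 (0.298). With 16 arrays these were 0.301, 0.478 and 0.529. The genes most like Hsd11b1 were Plin4 (r = 0.944), Cidec (0.939) and Dtx2 (0.937), of which Plin4 and Cidec belong to the adipocyte marker list. Over 16 arrays these were 0.921, 0.717 and 0.871. Most like Hsd17b4 were Fxyd1 (0.896 over 15 arrays and -0.452 over 16), Capns1 (0.888 and 0.874) and Reep5 (0.883 and 0.964). Most like Hsd17b12 were Ndufv2 (0.914 and -0.799), Tmx2 (0.891 and 0.0372) and Ndufa8 (0.881 and -0.712). For Hsd17b10 they were Dpm3 (0.862 and 0.360), Dalrd3 (0.848 and 0.157) and Ppp1r15b (0.83 and 0.669), and for H2-Ke6 Mrps18a (0.903 and 0.694), Ilrun (0.895 and 0.352) and Cdk5 (0.882 and 0.726).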

How the data were processed

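MAS5 produced the deposited intensity values, a linear signal for each probe set, as the submitters' processing notes state without a version. The deposited signals have a trimmed mean of 500 on every array (2% of probe sets dropped from either tail), so levels are relative to the whole array. Precision is limited by how many arrays there are, and detection calls were not used here.

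Groups came from the sample titles. Vehicle replicates carry accession-order numbers, which pair nothing. The 66 control probe sets and those under the 40th percentile of mean log2 signal were left out, and 7453 of 12422 were tested. log2(signal + 16), a scale that understates changes of low genes, was fitted with limma (version 3.58.1, R 4.3.3; eBayes with a trend in the mean) on all 16 arrays with sex and time as factors, leaving 8 residual degrees of freedom, or 7 with a sex by DHT term. The fit was tested on simulated data whose spread was taken without male vehicle replicate 2. For DHT against vehicle it recovered 60% of 50 changes of 1.5-fold, 72% of 50 of 2-fold and 100% of those of 3-fold, with 5 false calls. It does not show how often the main fit, whose spread includes that array, would miss such changes. Tests were two-sided and adjusted by Benjamini-Hochberg over all probe sets tested, with a threshold of 0.05. A listed gene was represented by its probe set of highest mean.

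All members were named. From each pathway list the genes past the threshold were named, and otherwise the 3 with the smallest p against vehicle; marker lists are given as counts and sums. The 3 genes of highest r were named for each member. The members and lists were chosen with earlier results of these data known. Of the non-control probe sets 10833 had 1 symbol, 396 several and 1193 none. Alternatives were another pseudocount, no filter, quantile normalization, 1 probe set per gene, no trend, the level of 15 antisense controls as a covariate, each sex alone, the 6 times as 1 group, and each array left out in turn. The 12 DHT arrays alone, late against early within a sex, and the covariate with 15 arrays were added after seeing the data. The comparison of Hsd11b1 with adipocyte sums was also not planned.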

Additional observations from a re-analysis of the deposited data

Results flagged for a closer look

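Hsd17b12 had a signal of 469 on male vehicle replicate 2, far below the other 3 vehicle arrays (3889.5 to 4350.2), and its gap to the nearest exceeded Dixon's 95% critical value for 4 arrays. It was the 1 outlier among 18 groups examined (6 probe sets on the DHT females, the DHT males and the vehicle arrays), where chance gives about 1 in 20. The same array had 0.179 of the mean of the other 7 males for Hsd11b1 and 0.197 for Hsd17b4, against 1.04 for Hsd17b10 and 0.747 for H2-Ke6 (102991_s_at). It was the array rich in muscle transcripts, and the part of its tissue makeup in these values was not tested.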

How the results depend on the processing

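No paired analysis was possible because the labels give no replicate numbers shared between groups. The counts of members passed were 0 under all alternatives for DHT against vehicle, single times, the F test and late against early. Between the sexes 1 member (Hsd11b1) passed with 16 arrays, where 5.58% of all probe sets did. With a pseudocount of 1, no filter, no trend or the antisense covariate 0 passed (adjusted p = 0.0526, 0.0569, 0.0509 and 0.0618 from limma). On the 12 DHT arrays 2 passed, where 12.3% of all did. Leaving out 1 array gave 0 to 2, with 2 only without male vehicle replicate 2, where 15.7% of all probe sets passed. For sex by DHT it gave 0 to 3, with 3 only without male vehicle replicate 1, when male vehicle was represented by the muscle-rich array, whose lone value was assumed to vary like the rest (log2 -1.93 for Hsd11b1, -2.33 for Hsd17b4 and -3.28 for Hsd17b12). Hsd11b1 kept its sign between the sexes, against vehicle and late against early under all alternatives run.

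Other values changed sign, on settings where they did not pass, and the cause was not tested. Against vehicle, H2-Ke6 was 0.028 in males alone, and in females alone Hsd17b4 was -0.038 and Hsd17b12 -0.092. Between the sexes Hsd17b12 was -0.19 on the 12 DHT arrays. Late against early, Hsd17b10 was 0.012 after quantile normalization and 0.14 with the covariate, and H2-Ke6 0.056 with it. With the covariate and 15 arrays Hsd17b10 was 0.12, Hsd17b12 0.20 and H2-Ke6 0.17, and in males alone Hsd17b4 was 0.050, Hsd17b10 0.16, Hsd17b12 0.13 and H2-Ke6 0.11. With 1 array left out, changes against vehicle were -0.050 to 0.81 for Hsd17b4, -0.054 to 1.10 for Hsd17b12 and -0.20 to 0.065 for H2-Ke6. Late against early they were -0.11 to 0.092 for Hsd17b10 and -0.29 to 0.064 for Hsd17b12, and between the sexes -0.17 to 0.41 for Hsd17b12. For sex by DHT they were -1.93 to 0.31 for Hsd11b1, -2.33 to 0.032 for Hsd17b4 and -0.50 to 0.15 for H2-Ke6.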
